A study of Mus musculus and Homo sapiens with 22 samples.

Results

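The genes described here form the core of the switch that takes a cell from G1 into S phase. They are the D-type cyclins Ccnd1, Ccnd2 and Ccnd3, the E-type cyclins Ccne1 and Ccne2, the cyclin-dependent kinases Cdk2, Cdk4 and Cdk6, the kinase inhibitor Cdkn1b (p27) and the retinoblastoma gene Rb1. They were taken as a named list of 10 genes out of 56196 genes in the count files, with the human genes of the same names for the human cell line. D-type cyclins bind Cdk4 and Cdk6, E-type cyclins bind Cdk2, and these kinases phosphorylate the retinoblastoma protein so that E2F transcription factors are set free to drive S-phase genes. Cdkn1b binds and restrains cyclin-kinase complexes. Embryonic stem cells are known for a short G1 phase.

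N6-methyladenosine (m6A) is placed on mRNA by the METTL3 methyltransferase, mostly at A in the motif DRACH (D is A, G or T, R is A or G, H is A, C or T), and it is known to affect splicing, translation and decay of transcripts. Site lists came from miCLIP2, where UV light ties an m6A antibody to the RNA and reverse transcription stops next to the bound base, and from the classifier m6Aboost, which picks m6A sites among the peaks. The lists analysed were those of mouse embryonic stem cells (mESCs) of wild type (WT; 3 replicates, replicate 1 with an additional technical replicate), of HEK293T (4 replicates), an established line from human embryonic kidney, and of purchased mouse heart RNA at 1 µg, 300 ng, 100 ng and 50 ng (1 library each). RNA-seq counts were analysed for 3 WT and 3 Mettl3 knockout (KO) mESC libraries, both lines having been taken from earlier work and grown in serum with LIF. How many KO clones this represents and the ages and number of animals behind the heart RNA are not given in the sources used here. Each list gives 1 score per site for all replicates together, so sites have no spread and their read depth is unknown.

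Gene counts per RNA-seq library ranged from 22746733 to 27254245, and replicates of a group differed by more than sampling noise. The study calls the matching miCLIP2 replicates biological, but whether the RNA-seq replicates came from separate cultures is not given in the sources used here, so p-values measure the spread between these libraries, which may be technical. Mettl3 was counted 560, 698 and 612 times in WT replicates 1 to 3 and 462, 669 and 457 times in the KO, and its log2 fold change of −0.50 (SE 0.14, edgeR adjusted p 0.0134) did not pass the threshold of 0.01 used throughout. It passed in DESeq2 (adjusted p 0.00418), in an edgeR fit that blocks on replicate number (adjusted p 0.00281) and with KO replicate 2 removed (edgeR adjusted p 0.00685). A deletion within the gene can leave reads elsewhere, so these counts check the labels only in part. By mass spectrometry of poly(A)+ RNA, the study reports that m6A was depleted in its Mettl3 KO mESCs. Of 8 pluripotency markers, 2 were called, both lower in the KO. Of all genes tested, 29.7% were called and 12.6% were called lower. The summed level of the 8 markers was 4309 to 4613 CPM (counts scaled to a common library size) in WT and 3110 to 3180 CPM in KO. The difference lay in the called markers Dppa5a (957 and 298 CPM, WT and KO means) and Tdgf1 (903 and 229 CPM), and the other 6 summed to 2447 to 2744 CPM in WT and 2607 to 2626 CPM in KO. Of 8 markers of feeder fibroblasts 3 were high enough to be tested, and 2 of these were called, against 29.7% of all genes tested. Thy1 was called higher (2.66 and 6.08 CPM), Pdgfrb lower (7.56 and 4.10 CPM), and Col1a1 was not called (1.15 and 0.658 CPM). The other 5 (Col1a2, Col3a1, Dcn, Lum and Postn) lay at or below 0.304 CPM in every library, and the 8 summed to 9.45 to 13.2 CPM in WT and 10.6 to 11.8 CPM in KO. Of 8 cardiomyocyte markers, 6 had sites in the heart list at 1 µg and 0 in the mESC list. The part of these differences in the results below was not tested.

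The sites in the mouse transcripts are shown first, since they carry the comparison between tissues and species. Of 25456 mESC sites, 18 lay in exons of 6 of the 10 genes, and of 46421 heart sites at 1 µg, 15 lay in exons of 5 of them. Each sequence is the 21 nt of mRNA sense around the site, 5′ to 3′, read from GRCm38, with the 5 nt centred on the methylated A in capitals. Shown are, for each gene, the mESC site of highest score and every site that mESCs share with heart.
Ccnd1, 3′ UTR, 2487 nt past the stop codon, chr7:144930110-144930130, minus strand: aaggccaaAGACTggtggtgg
Ccnd1, codon 294, shared with heart, chr7:144932604-144932624, minus strand: cgagatgtGGACAtctgaggg
Ccnd1, 3′ UTR, 2317 nt past the stop codon, shared with heart, chr7:144930280-144930300, minus strand: taatgtaaAGACTctgccttt
Ccnd3, 3′ UTR, 69 nt past the stop codon, shared with heart, chr17:47598835-47598855, plus strand: tgcctctaGAACAatccatgc
Ccnd3, codon 238, across the last exon junction with the site itself at position 47598610 of chromosome 17, shared with heart: actgaagtGGACTgcctgcga
Ccne1, 3′ UTR, 273 nt past the stop codon, chr7:38098232-38098252, minus strand: gacccactGGACTcttcacac
Cdk2, 3′ UTR, 304 nt past the stop codon, chr10:128698792-128698812, minus strand: caatcttaAGACTgtctcata
Cdk6, codon 311, shared with heart, chr5:3520732-3520752, plus strand: gacaacctGAACTctcacctg
Cdkn1b, 3′ UTR, 35 nt past the stop codon, shared with heart, chr6:134922099-134922119, plus strand: agaacacaAAACTgacacccc
Cdkn1b, 5′ UTR, shared with heart, chr6:134920765-134920785, plus strand: gctccattTGACTgtctgtgt
Cdkn1b, codon 44, shared with heart, chr6:134921040-134921060, plus strand: ctaacccgGGACTtggagaag
Cdkn1b, codon 132, shared with heart, chr6:134921304-134921324, plus strand: catttggtGGACCaaatgcct

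In HEK293T 13 of 36556 sites lay in exons of 6 of the 10 human genes. The site of highest score in each is shown in the same way, read from GRCh38.
CCND2, 3′ UTR, 2888 nt past the stop codon, chr12:4302887-4302907, plus strand: agggaagtGGAGCagccagca
CCNE1, 3′ UTR, 280 nt past the stop codon, chr19:29824047-29824067, plus strand: gacctaagGGACTcccacaac
CDK2, 3′ UTR, 82 nt past the stop codon, chr12:55971697-55971717, plus strand: ggctatttGGACTcaggtggg
CDK4, 3′ UTR, 52 nt past the stop codon, chr12:57748463-57748483, minus strand: tcccttctGGACActgagagg
CDK6, 5′ UTR, chr7:92833617-92833637, minus strand: tgtgttgaGGACTtcgcttcg
CDKN1B, codon 135, chr12:12718232-12718252, plus strand: ggacccaaAGACTgatccgtc
Regions and distances refer to the annotated transcript with the longest coding sequence (GENCODE M21 for mouse and 44 for human), and codons are counted from the start codon of that transcript.

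The D-type cyclins moved in opposite directions in the KO. Ccnd3, the D-type cyclin with the highest level per length in WT mESCs, fell, whereas Ccnd1 and Ccnd2 rose. Ccnd3 (chromosome 17) had 206, 144 and 209 CPM in WT replicates 1 to 3 and 93.9, 68.2 and 74.7 CPM in the KO. All KO libraries lay below all WT libraries, and the level was 2.36-fold lower (log2 fold change −1.24, SE 0.17, edgeR adjusted p 0.000285). Its processed pseudogene Ccnd3-ps was counted 0 to 2 times per library, so few reads were split to that copy, while other near-identical copies were not examined.

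Ccnd1 (chromosome 7) had 29.5, 23.1 and 48.8 CPM in WT and 76.7, 72.9 and 76.4 CPM in the KO. The groups did not overlap, and WT replicate 3 stood above the other WT libraries. The level was 2.23-fold higher in the KO (log2 fold change 1.16, SE 0.22, edgeR adjusted p 0.00206), and without WT replicate 1 it did not pass (log2 fold change 1.07, edgeR adjusted p 0.0148). Ccnd2 (chromosome 6) was barely expressed in WT, with 23, 16 and 36 counts, and had 139, 205 and 245 counts in the KO. Its level of 1.13 ± 0.547 CPM (WT) and 7.17 ± 1.77 CPM (KO; SD, n = 3) differed 6.40-fold (log2 fold change 2.68, SE 0.35, edgeR adjusted p 0.000252). Ccnd2 and Ccnd3 were called in every alternative fit, with edgeR or DESeq2 adjusted p up to 0.00250 and 0.00253.

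The balance between these cyclins was followed in each library, a measure chosen after their values were seen. The ratio of Ccnd1 counts to Ccnd3 counts, in which gene length and library size play no part in the comparison between groups, was 0.143, 0.161 and 0.234 in WT and 0.816, 1.07 and 1.02 in the KO. Per length, as RPKM (CPM per kilobase of exons), Ccnd3 made up 74.9 ± 4.92% of the D-type cyclin level in WT and 34.8 ± 3.51% in the KO (SD, n = 3). The shares were 90.7 ± 2.25% and 63.5 ± 3.54% when the length of a single transcript was used, so Ccnd3 remained the most abundant D-type cyclin in the KO by that length and not by the other. The summed D-type cyclin level was 28.5 ± 6.58 RPKM in WT and 25.7 ± 1.79 RPKM in the KO (SD, n = 3), with overlapping ranges. By the single-transcript length the sum was 97.3 ± 20.1 and 58.6 ± 6.59, and there the ranges did not overlap.

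**Figure D1:**
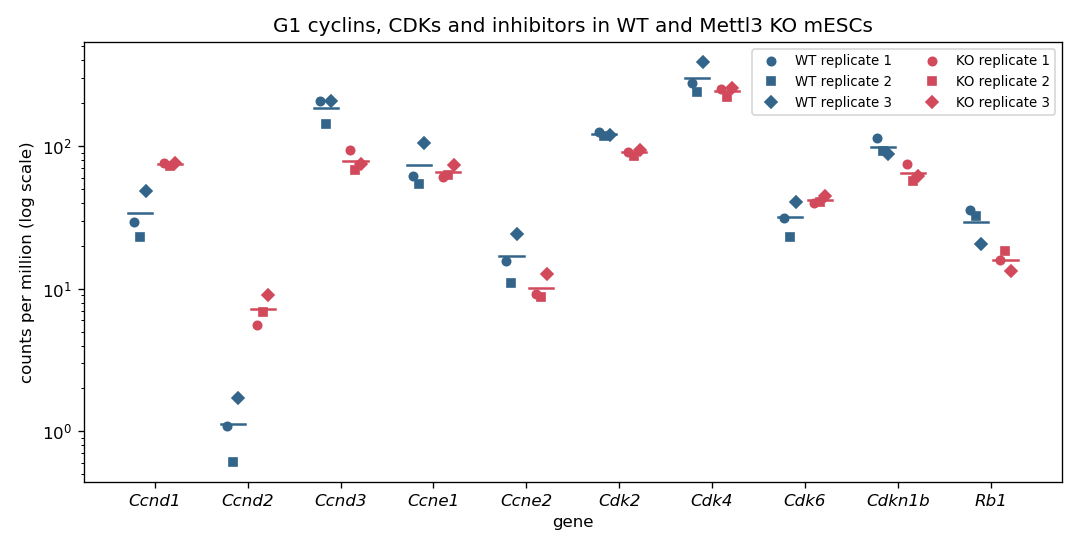
CPM (log axis) of the 10 genes in each RNA-seq library, with circles, squares and diamonds for replicates 1 to 3 and a line at each group mean. WT and KO libraries separate for Ccnd1, Ccnd2, Ccnd3, Cdk2, Cdkn1b and Rb1 and overlap for the other 4 genes.

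The E-type cyclins, which act with Cdk2 at the onset of S phase, showed smaller changes. Ccne1 had 62.1, 54.6 and 104 CPM in WT and 60.6, 62.3 and 74.1 CPM in the KO, and the groups overlapped. WT replicate 3 was the highest of the 6 libraries, the log2 fold change was −0.17 (95% interval −0.64 to 0.30, edgeR adjusted p 0.546), and without that library it was 0.17 (edgeR adjusted p 0.264). Ccne2 had 15.7, 11.0 and 24.4 CPM in WT and 9.19, 8.81 and 12.6 CPM in the KO. Its log2 fold change of −0.73 (SE 0.27, edgeR adjusted p 0.0453) was not called. It was called with the replicate number as a block (log2 fold change −0.69, edgeR adjusted p 0.00109), without a filter on low counts (−0.70, edgeR adjusted p 0.000930) and without WT replicate 2 (−0.98, edgeR adjusted p 0.00629). Within each replicate number Ccne2 was lower in the KO library.

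Among the kinases, Cdk2 fell, while Cdk4 and Cdk6, the partners of the D-type cyclins, were not called. Cdk2 (chromosome 10) had 127, 117 and 120 CPM in WT and 91.4, 85.6 and 94.0 CPM in the KO. The groups were tight and did not overlap, and the level was 1.34-fold lower (log2 fold change −0.42, SE 0.10, edgeR adjusted p 0.00532). The call was lost with scaling by library size only (edgeR adjusted p 0.0329), without a filter on low counts (0.0118), and without WT replicate 1 (0.0256) or KO replicate 1, 2 or 3 (0.0304, 0.0221 and 0.0199).

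Cdk4, the gene with the highest level per length of the 10, had 276, 240 and 386 CPM in WT and 252, 222 and 255 CPM in the KO. The groups overlapped, and the log2 fold change was −0.31 (95% interval −0.67 to 0.06, edgeR adjusted p 0.153). WT replicate 3 stood highest, and without it the value was −0.08 (edgeR adjusted p 0.562). Cdk6 had 31.3, 23.2 and 40.6 CPM in WT and 40.0, 40.6 and 44.8 CPM in the KO. Its log2 fold change of 0.40 (SE 0.18, edgeR adjusted p 0.0884) was not called, but it was with the replicate block (0.43, edgeR adjusted p 0.00733), without a filter on low counts (0.44, edgeR adjusted p 0.00957) and without WT replicate 3 (0.62, edgeR adjusted p 0.00514). The ratio of Cdk6 counts to Cdk4 counts was 0.105 ± 0.00843 in WT and 0.172 ± 0.0124 in the KO (SD, n = 3). This ratio was not planned before the values were seen, and it was not tested.

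Both restraints of the switch, Cdkn1b and Rb1, were lower in the KO. Cdkn1b (chromosome 6) had 114, 92.0 and 88.5 CPM in WT and 74.4, 56.9 and 61.7 CPM in the KO, without overlap. The level was 1.53-fold lower (log2 fold change −0.61, SE 0.14, edgeR adjusted p 0.00487). This call was lost with library size only (edgeR adjusted p 0.0124) and when WT replicate 1 (0.0249), KO replicate 2 (0.0223) or KO replicate 3 (0.0239) was left out. Rb1 (chromosome 14) had 35.7, 32.3 and 20.6 CPM in WT and 15.8, 18.3 and 13.2 CPM in the KO. WT replicate 3 lay closest to the KO, and the groups did not overlap. The level was 1.87-fold lower (log2 fold change −0.90, SE 0.20, edgeR adjusted p 0.00498), and the call was lost with library size only (edgeR adjusted p 0.0186) and when any of WT replicates 1 (0.0259) and 2 (0.0131) and KO replicates 1 (0.0208) and 3 (0.0230) was left out.

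In all, all 10 genes passed the filter on low counts and 6 were called, 2 higher and 4 lower in the KO. Of the 15731 genes tested, 29.7% were called, 17.1% higher and 12.6% lower. The CPM ranges of the groups did not overlap for 6 of the 10 genes and for 56.1% of all genes tested, a share near that of these 10. The median log2 fold change was −0.37 for the 10 genes and −0.02 for all genes. With the replicate block 8 of the 10 were called, against 43.5% of all genes in that fit (6837 of 15731), and with library size only 3 were, against 26.3% of all genes. Leaving out WT replicate 1 kept 2 (Ccnd2 and Ccnd3), and leaving out KO replicate 3 kept 3 (the D-type cyclins). Among all genes the number called was 4669, and 2761, 3108 and 3109 after KO replicate 1, WT replicate 1 and KO replicate 3 were left out. In bulk libraries fewer cells in a given phase and less RNA per cell cannot be told apart.

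**Figure D2:**
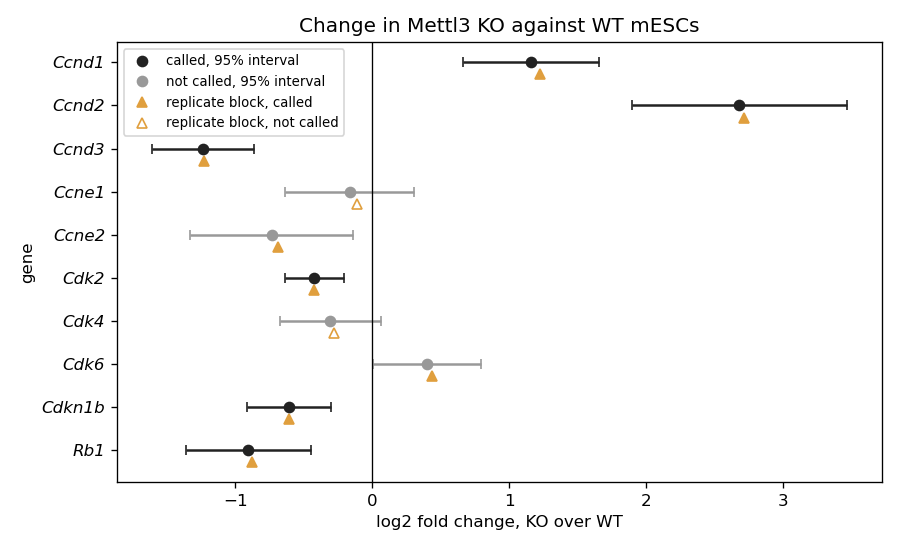
Log2 fold change of each gene in the KO against WT, with 95% intervals (circles, black where called at an adjusted p of at most 0.01), and the same from the fit with the replicate number as a block (triangles, filled where called). Ccnd1 and Ccnd2 lie to the right and Ccnd3, Cdk2, Cdkn1b and Rb1 to the left of 0, and the block adds Ccne2 and Cdk6 to the called genes.

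Ordered by level per length in WT, Cdk4 led with 92.5 ± 23.5 RPKM, above 97.9% of tested genes. It was followed by Ccne1 (27.7 ± 10.1), Cdkn1b (21.6 ± 3.04), Ccnd3 (21.2 ± 4.18) and Cdk2 (19.5 ± 0.773 RPKM), and neighbours among these 4 overlapped in their ranges over the libraries. Ccnd1 (7.18 ± 2.83), Rb1 (4.91 ± 1.32) and Ccne2 (4.87 ± 1.95 RPKM) also overlapped in that order, and Cdk6 (2.27 ± 0.622) and Ccnd2 (0.12 ± 0.0582 RPKM) came last without overlap (SD, n = 3 throughout). In the KO Ccnd1 stood in the place after Ccne1 (24.7 ± 2.76 RPKM) and before Cdk2 (14.5 ± 0.690 RPKM), and Ccnd3 lay below Cdk2 and Cdkn1b with 8.99 ± 1.52 RPKM. The order depends on the exons counted as length. With the length of a single transcript Ccnd3 stood at 88.1 RPKM and Cdk2 at 50.4 RPKM in WT, both above Ccne1 at 36.8 RPKM.

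Other regulators of the G1/S transition were examined as a list of 30 genes, all of which were tested. In the KO 7 of them rose and 6 fell, 13 called in all, with a median log2 fold change of −0.12 over the list. Over all genes tested 29.7% were called, 17.1% higher and 12.6% lower, with a median of −0.02. With the replicate block 17 of the 30 were called, 9 higher and 8 lower, against 43.5% of all genes, and without KO replicate 1 it was 7, against 17.1%. The CDK inhibitors were called in both directions. Cdkn1c (p57) rose by 1.31 on the log2 scale (SE 0.24, from 2.88 ± 0.377 to 7.14 ± 1.72 CPM) and Cdkn2d (p19) by 0.90 (SE 0.17, from 14.5 ± 2.36 to 27.2 ± 5.06 CPM; SD, n = 3). Cdkn2a, which encodes p16 and Arf, changed by −1.93 (SE 0.20, 10.6 ± 0.632 and 2.79 ± 0.468 CPM) and Cdkn2c (p18) by −1.28 (SE 0.28, 2.31 ± 0.333 and 0.949 ± 0.149 CPM; SD, n = 3). Cdkn1a (p21) had a log2 fold change of −0.29 (edgeR adjusted p 0.168) and Cdkn2b (p15) one of 0.14 (edgeR adjusted p 0.758), and neither was called. Among E2F factors, the activator E2f1 and the repressor E2f6 were higher (log2 fold changes 0.47 and 0.92), and E2f4, E2f2 and E2f8 were lower (−1.31, −0.87 and −0.80). The pocket protein gene Rbl2 (p130), a relative of Rb1, changed by −1.20 (SE 0.18, edgeR adjusted p 0.000557) and Rbl1 (p107) by −0.11 (edgeR adjusted p 0.412). E2f1, E2f2, E2f8, Rbl1, Rbl2 and, below, Rrm2 were named after their values were seen.

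Of 20 E2F target genes, most of them replication factors, 5 were called, 1 higher and 4 lower in the KO, and the median log2 fold change was −0.34. This is 25.0% of the list, against 29.7% of all genes tested. In this fit calls were no more frequent in the list than among all genes. Tk1, the thymidine salvage kinase, rose from 52.1 ± 14.2 to 131 ± 27.5 CPM (SD, n = 3; log2 fold change 1.33, SE 0.21). The genes that fell were Mcm2 (−0.70) and Mcm6 (−0.49) of the replicative helicase, Ccna2 (−0.57), the cyclin of S phase and mitosis, and Rrm2 (−0.46), a subunit of ribonucleotide reductase. The remaining 15 had log2 fold changes from −0.52 to 0.15. This count varied most between fits. With the replicate block 11 were called, 10 of them lower (43.5% of all genes in that fit, 3694 higher and 3143 lower). Without a filter on low counts it was 9, 8 of them lower (20.6% of all genes, 3771 higher and 2635 lower). With scaling by library size alone it was 2, 1 higher and 1 lower (26.3% of all genes). Leaving out WT replicate 2 gave 10, 9 of them lower (25.6% of all genes in that fit, 2347 higher and 1783 lower). Without WT replicate 1 or 3 or KO replicate 1 or 2 it was 2 each (19.1%, 33.1%, 17.1% and 21.8% of all genes). In each of these fits 1 was higher and 1 lower. Without KO replicate 3 it was 1, which was higher (19.3% of all genes).

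**Figure D3:**
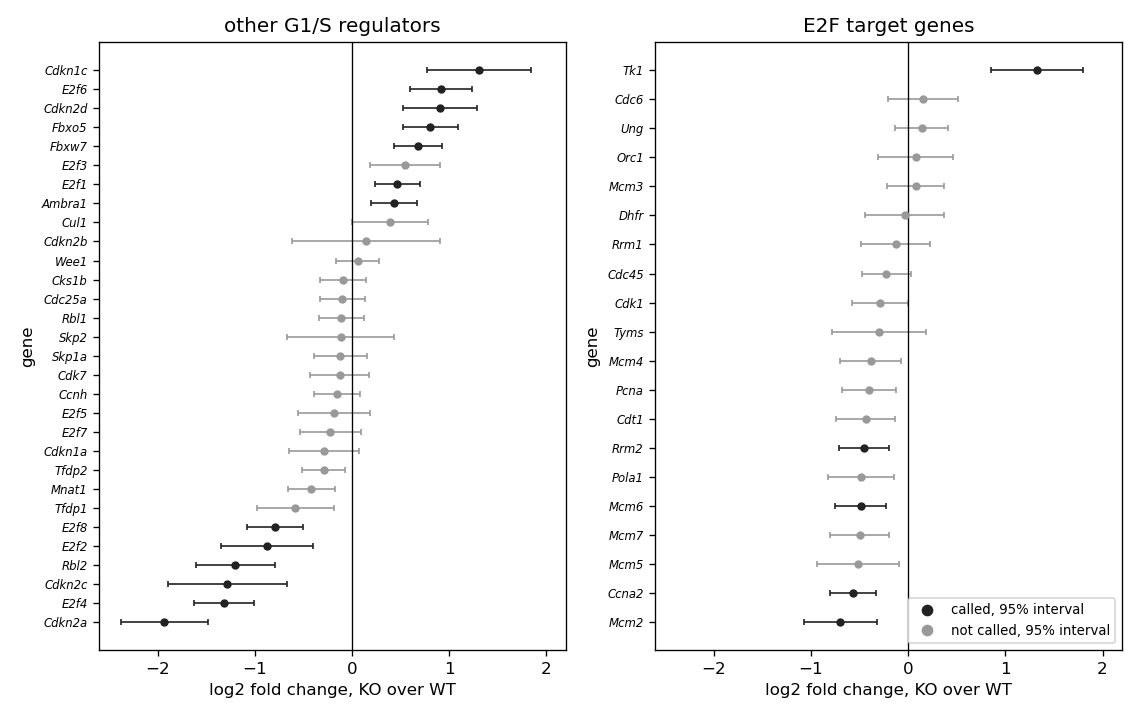
Log2 fold change in the KO against WT with 95% intervals for 30 other G1/S regulators (left) and 20 E2F target genes (right), black where called. Called G1/S regulators lie on both sides of 0, with Cdkn1c highest and Cdkn2a lowest, and Tk1 is the only E2F target called higher.

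The predicted m6A sites were set beside these levels. In mESCs Cdkn1b carried 5 sites, Cdk2 4, Ccnd1 and Ccne1 3 each, Ccnd3 2 and Cdk6 1, whereas Ccnd2, Ccne2, Cdk4 and Rb1 carried 0. Of all genes tested in the RNA-seq data 41.4% had a site, and genes with a site in the mESC list had a median of 3. Within 0.25 log2 CPM of the mean level of each of the 6 genes with sites, 69.5% (Cdk6) to 84.3% (Cdk2) of tested genes had a site as well. Here and below, the mean level is that over the WT and KO libraries together, whereas the sites are of WT cells. For genes that changed in the KO it is therefore not the WT level. Of the 4 genes without a site, Ccnd2 had few reads, and 3.62% of tested genes near its mean level had a site. At the level of Cdk4, the most abundant of the 10, 89.4% of 255 genes had one, and at the levels of Rb1 and Ccne2 54.7% and 39.2% did. The Cdk4 transcript held 44 DRACH motifs, that of Rb1 91 and that of Ccne2 78. Genes with and without sites were found among those that rose (Ccnd1 with 3 sites, Ccnd2 with 0), and likewise among those that fell (Ccnd3, Cdk2 and Cdkn1b with 2 to 5, Rb1 with 0).

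Most DRACH motifs of the genes with sites were not in the list. A site was listed at 5 of 81 DRACH motifs in Cdkn1b, 4 of 41 in Cdk2, 3 of 34 in Ccne1, 3 of 66 in Ccnd1, 2 of 27 in Ccnd3 and 1 of 216 in Cdk6. In Cdk6 none of the 190 motifs of its long 3′ UTR was listed, and the site lay at codon 311, 49 nt before the end of the stop codon. All 18 mESC sites lay in DRACH, against 92.9% of the whole list, and 4 of them in GGACT. By region, 4 lay in the 5′ UTR, 6 in the coding sequence and 8 in the 3′ UTR, and 8 of 18 (44.4%) lay within 200 nt of the stop codon, against 31.6% of sites of the whole list on coding transcripts. Motif and region are inputs of the classifier, so these shares are partly built in. The m6Aboost score, which runs from 0.5 to 1 in this list, had a median of 0.685 over the 18 sites and of 0.745 over the list. The highest belonged to Cdk2 (0.890, 304 nt past the stop codon), Ccne1 (0.846, 273 nt past it) and Cdk2 again (0.832, 56 nt past it).

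The 5′ UTR sites belonged to Cdk2 and Cdkn1b, with 2 in each. In Cdk2 they lay 161 and 113 nt before the start codon, in the exon in which the transcript begins, with scores of 0.685 and 0.673. In Cdkn1b they lay 145 and 123 nt before the start codon, with scores of 0.602 and 0.612. In the whole mESC list 2.53% of sites on coding transcripts lay in 5′ UTRs.

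**Figure D4:**
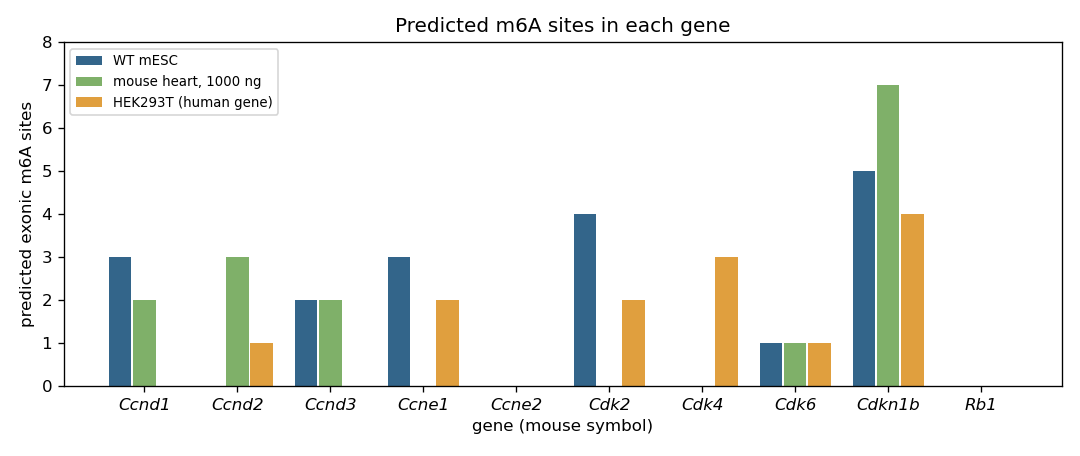
Number of predicted m6A sites in exons of each gene in WT mESCs, mouse heart (1 µg) and HEK293T (human gene of the same name). Cdkn1b has the most sites in all 3 lists, 5, 7 and 4, and Ccne2 and Rb1 have none in any of them.

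The heart list at 1 µg differed by gene. Ccnd1, Ccnd3, Cdk6 and Cdkn1b had sites in both mouse lists, Ccnd2 in heart only (3 sites), and Ccne1 and Cdk2 in mESCs only (3 and 4 sites). Ccne2, Cdk4 and Rb1 had none in either. RNA levels in heart were not analysed here, so presence of a transcript and methylation of it cannot be told apart. At single-nucleotide resolution 9 positions were shared, which is 50.0% of the mESC sites and 60.0% of the heart sites in these genes. Over all genes the shared sites were 59.7% of mESC sites and 33.7% of heart sites. In Ccnd3 and Cdk6 both lists held the same positions, in Ccnd1 the heart list held 2 of the 3 mESC positions, and in Cdkn1b 4 positions were shared, with 1 further position in mESCs and 3 in heart.

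The heart sites of Ccnd2 all lay in its long 3′ UTR, 421, 532 and 3826 nt past the stop codon. They are shown as the sites of the gene that is listed in heart and not in mESCs.
Ccnd2, 421 nt past the stop codon, chr6:127129904-127129924, minus strand: attgcaagGAACCgtgggtgc
Ccnd2, 532 nt past the stop codon, chr6:127129793-127129813, minus strand: caaccacaTGACTgaaccatt
Ccnd2, 3826 nt past the stop codon, chr6:127126499-127126519, minus strand: agggtaagTGACCcctcagag
The additional heart sites of Cdkn1b lay at codons 40 and 124 and 2272 nt past the stop codon. All 15 heart sites lay in DRACH, against 93.1% of that list. The heart score is on a scale that is not stated and serves only for rank. The highest-ranked site of these genes was that of Ccnd3 69 nt past the stop codon, above 71.7% of heart sites, followed by that of Cdkn1b 35 nt past it, above 70.2%. With less input RNA the whole lists were shorter. At 300 ng 1 of 8845 sites lay in these genes, codon 132 of Cdkn1b, which was also present at 1 µg, and at 100 ng and 50 ng 0 were listed out of 1112 and 248 sites.

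In HEK293T the sites fell on partly different genes. CDKN1B had 4, CDK4 3, CCNE1 and CDK2 2 each, and CCND2 and CDK6 1 each, while CCND1, CCND3, CCNE2 and RB1 had 0. CDK4, without a site in either mouse list, had sites at codon 145 and at 52 and 141 nt past the stop codon. Their scores of 0.549, 0.829 and 0.564, in that order, lay above 10.8%, 78.7% and 14.4% of HEK293T sites. 11 of the 13 sites lay in DRACH, against 89.3% of the whole list. The others were GGAGC in the 3′ UTR of CCND2 (score 0.546, above 10.2% of the list) and GGACG at codon 17 of CDKN1B (0.689, above 43.3%). The site of CCNE1 280 nt past the stop codon had a score of 0.935, above 97.5% of HEK293T sites, and that of CDK2 82 nt past the stop codon one of 0.915, above 95.2%. RNA levels in HEK293T were not analysed here.

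**Figure D5:**
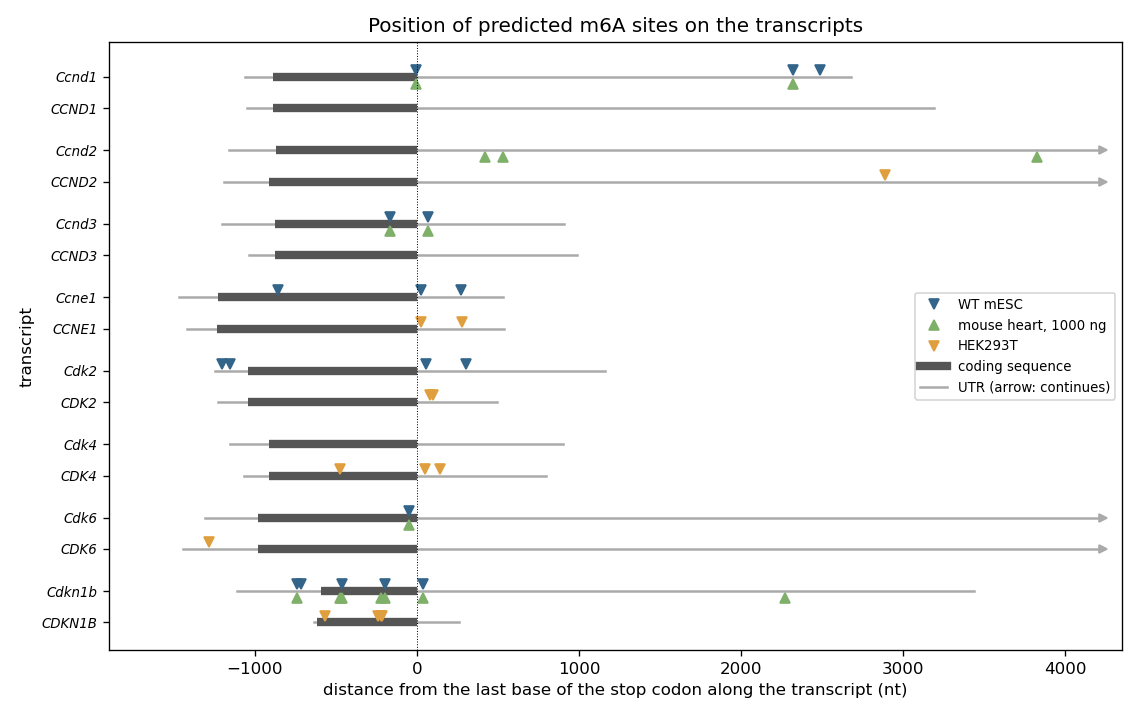
Predicted m6A sites on the mouse and human transcripts of genes with a site, plotted by distance along the transcript from the last base of the stop codon (nt), with thick lines for coding sequence and thin lines for UTRs. Sites of Ccne1 and CCNE1 lie at like distances behind the stop codon, and the heart sites of Ccnd2 lie in the 3′ UTR, where mESCs have none.

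The sites were then compared between mouse and human by sequence. With a match defined as a site in the other species with at least 19 of 21 identical bases, 0 of the 18 mESC sites had a match in HEK293T, and at 17 bases there was 1. This was codon 132 of Cdkn1b, listed in mESCs, in heart at 1 µg and 300 ng, and at codon 132 of CDKN1B in HEK293T. Its mESC score of 0.552 was the lowest of the 18 and above 8.11% of the mESC list. In heart it ranked above 22.9% of sites at 1 µg and above 3.04% at 300 ng. The HEK293T score of 0.673 lay above 39.3% of that list. The human site, shown for this comparison, shared 18 of 21 bases, with the substitutions A14C, T17A and C19A counted from the 5′ end of the mouse window, none of which lies in the central 5 nt.
CDKN1B, codon 132, chr12:12718224-12718244, plus strand: catttggtGGACCcaaagact
A pair of further sites lay at like places with less sequence in common, and they were chosen after their values were seen. In Ccne1 and CCNE1 a site lay exactly 25 nt past the stop codon in both species, in the same AGACA and with 16 of 21 bases in common.
Ccne1, 3′ UTR, chr7:38098480-38098500, minus strand: gcctccaaAGACAgtggtgtg
CCNE1, 3′ UTR, chr19:29823792-29823812, plus strand: tccaccaaAGACAgttgcgcg
In Cdk2 the site 56 nt past the mouse stop codon and that 82 nt past the human one also shared 16 of 21 bases.
Cdk2, 3′ UTR, chr10:128699040-128699060, minus strand: ggccttttGGACAcaggtcag

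Sequence kept between the species did not always come with a listed site. For 4 mESC sites the human exons held a stretch with at least 19 of 21 identical bases and no HEK293T site at it. At codon 238 of Ccnd3 (20 of 21 bases, A21G) and codon 44 of Cdkn1b (20 of 21, C1T) the GGACT was identical, and at codon 294 of Ccnd1 (19 of 21, A3G and T6C) the GGACA was. In the 5′ UTR of Cdk2, the site 161 nt before the start codon had a human counterpart with 19 of 21 bases in which the methylated base itself differed (A11C, with T19A), so the human sequence reads GGCCA. In the other direction, 3 HEK293T sites had such a stretch in mouse exons and no mESC site there: codon 145 of CDK4 (20 of 21, G18A, counted on the human window), codon 17 of CDKN1B (GGACG kept) and codon 127 of CDKN1B, where the mouse reads GGACC.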

How the data were processed

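The deposited RNA-seq values are whole-number counts per gene, which the authors made with STAR 2.6.1b on GRCm38.p6 and htseq-count (HTSeq 0.12.4, reverse strand, so antisense overlaps, present for 8 of the 10 mouse genes, were counted apart). Lines naming no gene were left out. They held 42.7, 38.8 and 39.4% of counts in WT replicates 1 to 3 and 37.4, 36.7 and 37.6% in the KO. The groups did not overlap in this share, and its part in the results was not tested. The deposited score of mESC and HEK293T sites is the prediction score of m6Aboost, which the authors applied to PureCLIP peaks after mapping with STAR 2.7.3a and removing duplicates with UMI-tools 1.0.0. The heart score deposited by the authors has no stated scale and was used for rank only. Heart inputs follow the study's text, since titles give 300, 100 and 50 in µg.

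Genes were tested with edgeR 4.0.16 in R 4.3.3 (filterByExpr, TMM, quasi-likelihood test) over 15731 genes, with Benjamini-Hochberg adjustment and a threshold of 0.01, and checked on simulated data. SE is the log2 fold change over the root of F. CPM and RPKM use TMM-adjusted library sizes, RPKM the union of exons of GENCODE M21 (55154 of 56196 IDs matched). The authors used a later mouse and an earlier human annotation release. Sites were placed with bedtools 2.31.1 on the strand and in the exons of a single gene. Sequences were read from the genomes, and 21-nt mRNA windows were compared without gaps.

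The deviations of same-numbered WT and KO libraries from their group means correlated (r 0.231, 0.531 and 0.451 over 9390 genes), so the numbers pair the libraries by a rule of r above 0.1 in each pair. The block is given where it changes a call or a list's count.

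Alternatives were DESeq2 1.42.0, its size factors, library size only, other filters, an adjusted p of 0.05, the block, leaving out each library, score, window, overlap and transcript choices. The genes and lists were chosen with earlier results of these data known. Named beyond the 10 genes are Mettl3, CDK inhibitors and, of the regulator and target lists, the called genes with the 3 highest and 3 lowest log2 fold changes, and others that the text says were named after their values were seen. The miCLIP2 samples of KO cells were not analysed here.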

Additional observations from a re-analysis of the deposited data

How the results depend on the processing

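Over 120 alternative values of the 10 log2 fold changes, 97 kept direction and side of the threshold, 16 lost the call, 6 gained it and 1, Ccne1, changed sign. Ccnd2 and Ccnd3 were called in every one. With library size only the median of all genes moved from −0.02 to 0.08, all calls went from 2687 higher and 1982 lower to 2937 higher and 1199 lower, members called went to 3 (2 higher, 1 lower) and E2F targets to 2, and Cdk2 (−0.32), Cdkn1b (−0.51) and Rb1 (−0.81) lost their calls. Without a filter on low counts Cdk2 (−0.39) lost its call, and Ccne2 (−0.70) and Cdk6 (0.44) gained one. In that fit 9 E2F targets and 20.6% of all genes were called. With the replicate block 6837 genes, 17 G1/S regulators and 11 E2F targets were called, Ccne2 (−0.69), Cdk6 (0.43) and Mettl3 (−0.51) gained a call, and no other call of the 10 genes and Mettl3 changed. Mettl3 also passed in DESeq2 (−0.51). At an adjusted p of 0.05, 7336 genes and 11 E2F targets were called. Leaving out each library in turn gave 2 to 7 members, 7 to 14 G1/S regulators and 1 to 10 E2F targets called. Of all genes 2761 to 5412 were called, 17.1 to 33.1% of those tested in the same fit. The fewest members came without WT replicate 1 (19.1% of all genes) and the most without WT replicate 3 (33.1%). The log2 fold changes then ranged from 0.93 to 1.52 for Ccnd1, −0.35 to 0.17 for Ccne1, −0.98 to −0.38 for Ccne2, −0.46 to −0.38 for Cdk2, −0.46 to −0.08 for Cdk4, 0.21 to 0.62 for Cdk6, −0.72 to −0.49 for Cdkn1b, −1.11 to −0.75 for Rb1 and −0.62 to −0.40 for Mettl3. The cause of these moves was not tested.

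Sites at or above the median score of their list numbered 7 in mESCs, 6 in HEK293T and 6 in heart, and 1 of those was shared by mESCs and heart. Gene bodies in place of exons, exons shared with other genes, a tolerance of 2 nt and the longest transcript changed no count. At 17 of 21 bases 1 site matched between species. With single-transcript lengths the WT levels were 0.179 (Ccnd2), 88.1 (Ccnd3), 50.4 (Cdk2), 146 (Cdk4) and 6.35 RPKM (Rb1). The depth behind the sites is unknown, so a site that is not listed is not shown to be unmethylated.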
